A study of Homo sapiens with 30 samples.

Results

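The genes described here are 10 transcriptional repressors and output regulators of the circadian clock, measured by RNA sequencing in a pair of human cancer cell lines treated with Omomyc. They are DBP and TEF (PAR bZIP factors), NR1D1 and NR1D2 (the REV-ERB nuclear receptors), PER1, PER2, PER3 and CRY1 (the period and cryptochrome repressors), and BHLHE40 and BHLHE41 (the DEC repressors). They were taken by name as 10 of the 57992 genes in the deposited table, and this list was chosen from results of the same libraries, so their levels and fold changes are given as a description and no p-value is attached to them. Omomyc is a miniprotein derived from the basic helix-loop-helix zipper of MYC that binds E-box DNA, and the study asked how transcription responded to it.

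HCT116 is a colorectal carcinoma line and Ramos is a Burkitt lymphoma B cell line. In HCT116 there were untreated cells and cells given 2 μM or 10 μM Omomyc together with the protein delivery reagent ProteoJuice for 6 h or 24 h. The methods text puts the lower HCT116 dose at 2.5 μM where the labels say 2 μM. In Ramos there were untreated cells and cells given 0.5 μM or 2.5 μM Omomyc for 6 h or 24 h, with no delivery reagent named. Each of the 10 groups held 3 libraries, 30 in all. A separate label gives 4 h for the libraries titled 24 h, and the titles were followed. Per the methods, HCT116 cells were treated in Opti-MEM and medium with serum was added when incubation ran past 4 h, which covers both times used here. The untreated groups carry no time point, and whether they received ProteoJuice or the same change of medium is not stated, so the effects of Omomyc, the reagent, the medium and the hour of harvest cannot be told apart. Nothing in the labels says that the 3 libraries of a group came from separate cultures, so the errors below measure only the spread between these libraries, which may be technical.

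In the mammalian clock, CLOCK and BMAL1 (the ARNTL product) bind E-box elements and drive the PER, CRY, REV-ERB, DEC and PAR bZIP genes. PER and CRY proteins inhibit CLOCK-BMAL1 itself, the DEC proteins compete for the same E-boxes, and the REV-ERB receptors repress ARNTL. DBP and TEF carry the rhythm onward through D-box elements in output genes and in some clock genes. PER1, PER2 and BHLHE40 are also known to respond quickly to serum, cAMP and stress signals, outside the E-box loop.

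An E-box or the related E'-box could be read in the promoters of 8 of these genes. RefSeq promoter sequence of build GRCh38.p14 was matched for 10 of 10 genes by symbol, in 13 windows of 250 bases before an annotated start. The E-box CACGTG, searched on both strands, was found for 5 genes (TEF, NR1D2, PER1, BHLHE40 and BHLHE41), in 6 of the 13 windows of the 10 genes. It was found for 7.73% of all 27305 genes and in 6.34% of all 35116 promoter windows. The related E'-box CACGTT was found on either strand for 3 other genes (NR1D1, PER2 and CRY1) and for 5.53% of all genes. The D-box TTATGTAA was found for NR1D2 and PER3 and for 1.06% of all genes, while its variant TTACGTAA was found for 0 of the 10 and for 0.128% of all genes. None of these letters were in the DBP window, and sequence outside the windows was not searched for any gene. The 10 genes are known as E-box-driven clock genes, so a higher share with an E-box or E'-box than among all genes was built into the list. That share is not read as a result. These motifs do not overlap each other in the windows shown, and a match is a description of the letters and says nothing of binding in these cells.

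The stretches below are shown because they hold the E-box or E'-box shared by genes that moved in opposite directions in HCT116, with that element in capitals and the strand of the gene printed 5′ to 3′. The NR1D2 stretch (chr3:23945915-23946033, plus strand) lies in the NR1D2 gene outside annotated exons, where NKIRAS1 is annotated on the other strand, and its first capitals mark the D-box in the reverse orientation. The TEF stretch (chr22:41367230-41367295, plus strand) has no annotated gene. The PER1 stretch (chr17:8152542-8152607, minus strand) and the PER2 stretch (chr2:238288772-238288837, minus strand) lie within their genes outside annotated exons. At the PER1 stretch AC129492.3 is also annotated, on the same strand. The NR1D1 stretch (chr17:40100740-40100769, minus strand) lies upstream of the gene and the CRY1 stretch (chr12:107093621-107093650, minus strand) in an annotated UTR exon of CRY1, and both carry the E'-box in the reverse orientation. The BHLHE40 stretch (chr3:4979187-4979209, plus strand) also lies in an annotated UTR exon.
NR1D2: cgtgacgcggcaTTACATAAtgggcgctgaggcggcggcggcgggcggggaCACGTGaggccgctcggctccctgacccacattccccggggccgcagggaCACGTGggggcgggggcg
TEF: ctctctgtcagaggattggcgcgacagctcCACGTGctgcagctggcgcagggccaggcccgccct
PER1: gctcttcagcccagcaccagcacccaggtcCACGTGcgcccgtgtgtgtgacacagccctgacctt
PER2: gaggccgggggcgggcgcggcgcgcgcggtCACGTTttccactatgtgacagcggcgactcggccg
NR1D1: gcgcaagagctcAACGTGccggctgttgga
CRY1: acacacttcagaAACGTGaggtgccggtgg
BHLHE40: tccaaCACGTGagactcatgtga

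**Figure D1:**
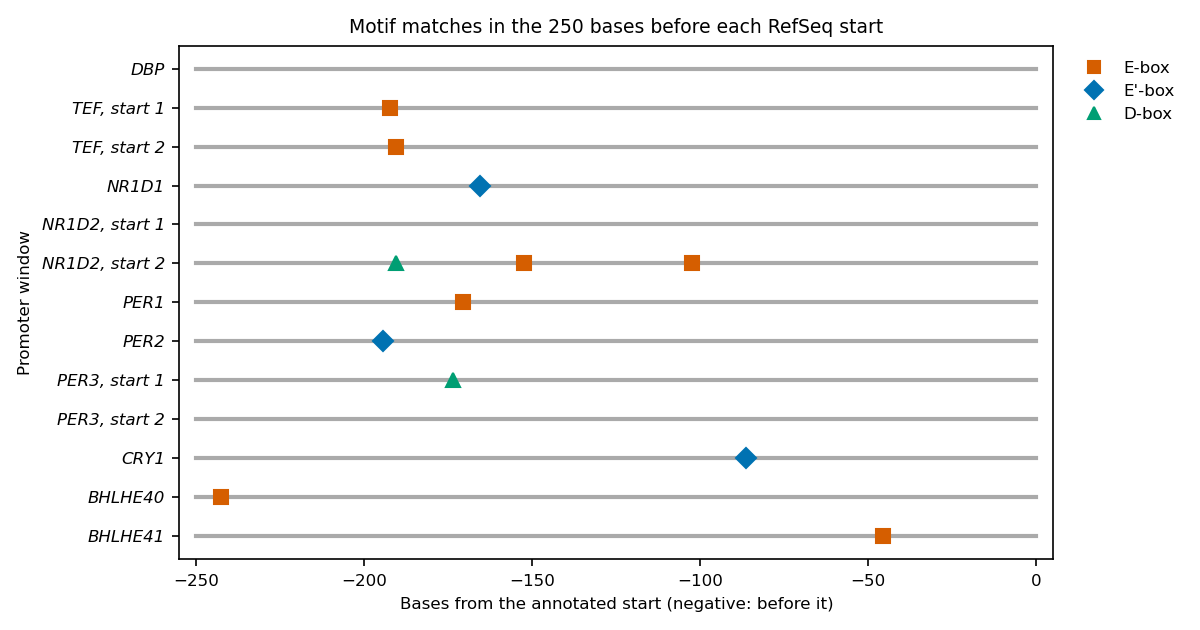
Positions of E-box (squares), E'-box (diamonds) and D-box (triangles) matches in the 13 promoter windows of the 10 genes, on an axis of bases from the RefSeq start, negative before it. The E-box or E'-box lies from 48 bases (BHLHE41) to 245 bases (BHLHE40) before the start, and the window of DBP is empty.

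Levels are RPKM, reads scaled to library size and gene length, a scale on which genes can be compared. Depth is unknown, because the table gives no counts. The RPKM values summed to between 593633 and 1051041 per HCT116 library and between 783788 and 973736 per Ramos library, and replicate libraries correlated at 0.988 to 0.997 over all genes on the log scale. HCT116 replicate 3 at 10 μM and 6 h stood apart, with the highest sum of all and 37.2% of it in the signal recognition particle RNAs RN7SL1 and RN7SL2, against 10.8% to 15.5% in untreated HCT116. The other HCT116 libraries at 6 h also lay above the untreated range, with 18.4% to 22.2% at 2 μM and 17.5% and 20.3% at 10 μM, and at 24 h the share was 13.8% to 14.9% at 2 μM and at most 15.9% at 10 μM. This share thus moved with the 6 h changes described below, and its part in them was not tested. Of 7 epithelial markers 6 were at 1 RPKM or more in every HCT116 library, and the list summed to at most 1.94 RPKM in Ramos. All 7 B cell markers were at that level in every Ramos library, and they summed to at most 3.08 RPKM in HCT116. Fold changes below are differences of log2(RPKM + 0.5), with the standard error (SE) from limma, and a gene is said to have risen or fallen where its Benjamini-Hochberg adjusted p over all tested genes was under 0.05.

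At 6 h in HCT116 the called genes moved in both directions. DBP, TEF, NR1D1 and NR1D2 fell at both doses, while PER1, PER2, CRY1 and BHLHE40 rose at both. PER3 and BHLHE41 were not called. At 2 μM 8 of 10 genes passed the threshold, 4 higher and 4 lower, in a comparison in which 15.5% of all tested genes were higher and 31.8% were lower. At 10 μM 8 of the 9 genes that passed the filter on low values did so, again 4 higher and 4 lower, against 8.84% and 21.2% of all tested genes. The median log2 fold change of the 10 genes at 2 μM was 0.07, beside −0.12 for all tested genes, and that of the 9 at 10 μM was 0.44, beside −0.11. Rescaling every library to an equal sum of RPKM moved the medians of all genes to −0.42 and −0.56, under which PER1 and PER2 at 10 μM were no longer called and no called value of these 8 genes changed sign. The comparisons of treated HCT116 groups all use the same 3 untreated libraries.

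**Figure D2:**
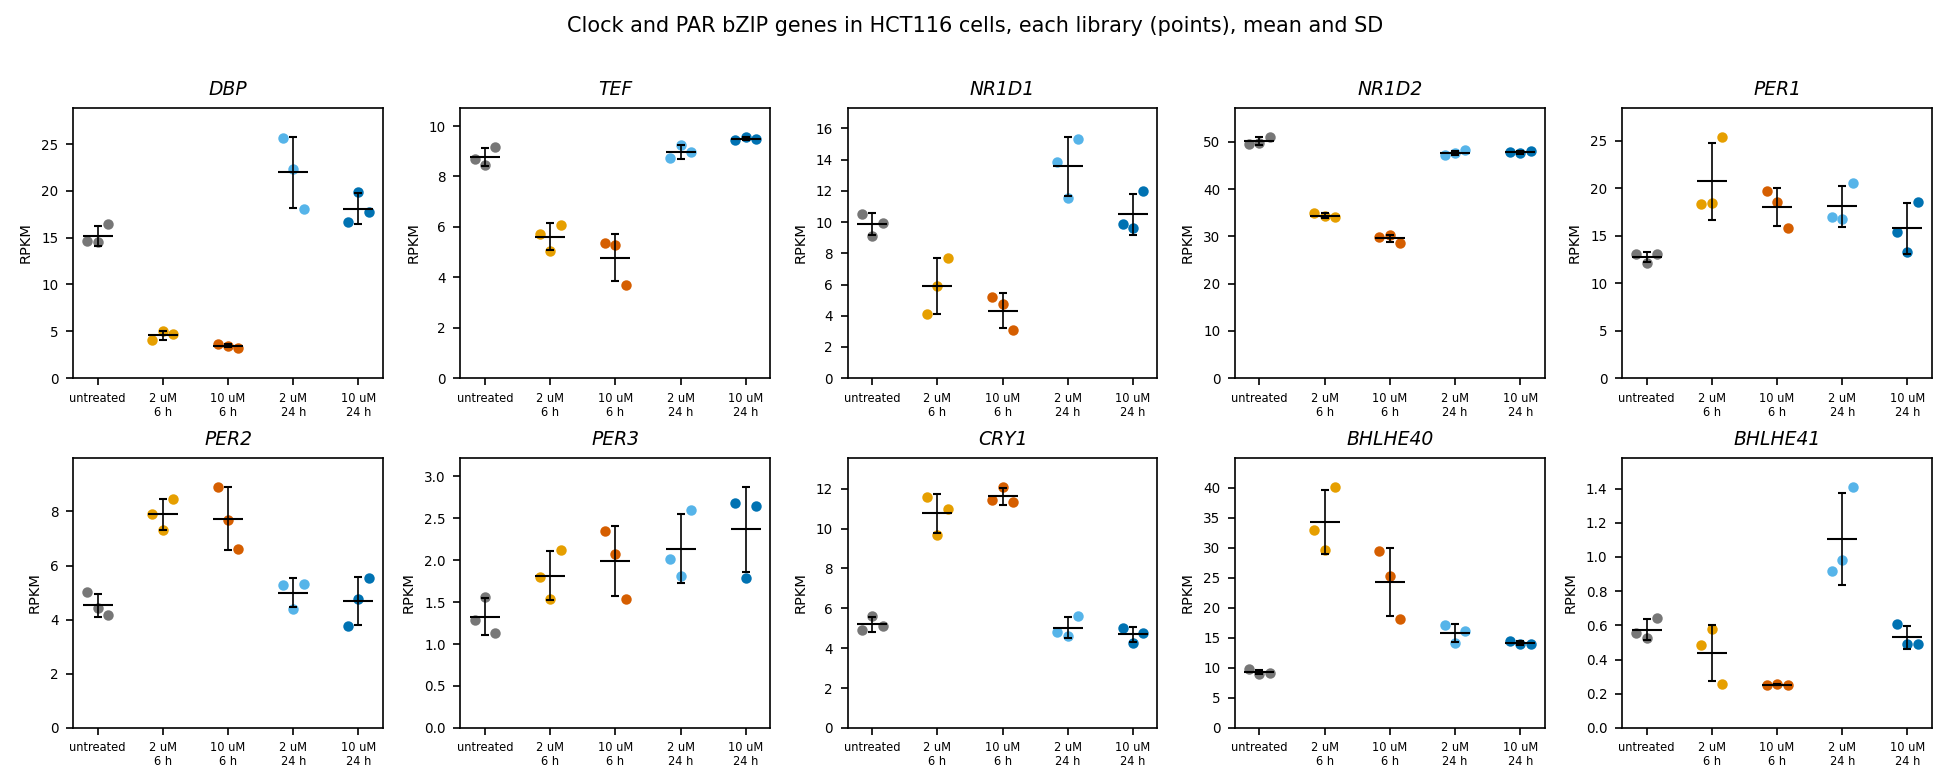
RPKM of the 10 genes in each HCT116 library (points), with the group mean (bar) and SD (whiskers), for untreated cells and each dose and time. DBP fell from 15.2 RPKM to 3.45 RPKM at 10 μM and 6 h and stood at 18.1 RPKM at 24 h, while BHLHE40 rose from 9.30 RPKM to 34.2 RPKM at 2 μM and 6 h and stood at 15.8 RPKM at 24 h.

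DBP, the PAR bZIP activator of D-box output genes, showed the largest fall of the 10. It measured 14.6, 14.6 and 16.4 RPKM in the untreated libraries, a mean of 15.2 ± 1.05 (SD, n = 3). At 2 μM and 6 h it measured 4.03, 4.99 and 4.66 RPKM, and at 10 μM and 6 h 3.61, 3.46 and 3.27 RPKM. All 6 libraries at 6 h lay far below the untreated ones, and the doses did not overlap each other. The fall was −1.64 (SE 0.0982) at 2 μM and −1.99 (SE 0.106) at 10 μM on the log2 scale, a ratio of means of 3.33 and 4.41. At 24 h the level was back above that of untreated cells, with 25.6, 22.3 and 18.0 RPKM at 2 μM and 16.7, 19.9 and 17.8 RPKM at 10 μM. None of these 24 h libraries overlapped the untreated ones, and the log2 fold change was 0.51 (SE 0.112) at 2 μM and 0.24 (SE 0.0787) at 10 μM. The call at 10 μM was lost in 10 of 15 alternative settings, 4 of them the loss of 1 library, over a range of 0.17 to 0.30 without 1 library, and that at 2 μM was lost when no filter was applied. From 6 h to 24 h DBP rose by 2.14 (SE 0.131) at 2 μM and 2.23 (SE 0.119) at 10 μM, the largest rise among the 10 genes at either dose.

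TEF, the second PAR bZIP factor, followed DBP with a smaller amplitude. Its untreated libraries measured 8.71, 8.45 and 9.15 RPKM. At 6 h it measured 5.70, 5.05 and 6.09 RPKM at 2 μM and 5.35, 5.26 and 3.70 RPKM at 10 μM, the lowest value being that of the replicate 3 library that stood apart. The 6 h groups overlapped each other and not the untreated group. TEF fell by 0.60 (SE 0.0937) and by 0.83 (SE 0.151) on the log2 scale, the latter by 0.67 without that library. At 24 h its means were 8.98 ± 0.274 and 9.51 ± 0.0651 RPKM (SD, n = 3), with log2 fold changes of 0.03 and 0.11 that did not pass the threshold.

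NR1D1 encodes REV-ERBα, the haem-binding repressor of ARNTL. It measured 10.54, 9.13 and 9.97 RPKM in untreated HCT116, then 4.11, 5.90 and 7.72 RPKM at 2 μM and 5.18, 4.73 and 3.05 RPKM at 10 μM after 6 h. The 2 treated groups overlapped each other and lay below every untreated library. The log2 fold change was −0.73 (SE 0.179), not called when no filter was applied, and −1.13 (SE 0.184). At 24 h and 2 μM it measured 13.9, 11.5 and 15.3 RPKM, above every untreated library, with a log2 fold change of 0.43 (SE 0.101). At 24 h and 10 μM it measured 9.90, 9.60 and 11.99 RPKM, overlapping the untreated group. The rise at 2 μM was not called when libraries were rescaled to an equal sum, when all 5 groups were fitted together or with no filter on low values.

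NR1D2, which encodes the paralogue REV-ERBβ, was the most abundant of the 10 genes in HCT116 and the tightest between replicates. The untreated libraries measured 49.6, 49.7 and 51.1 RPKM. After 6 h they were 34.9, 34.4 and 34.0 RPKM at 2 μM and 29.8, 30.3 and 28.7 RPKM at 10 μM. No library of these 3 groups overlapped another group, and the level was lower at 10 μM than at 2 μM, although the difference between doses, −0.22 (SE 0.103), did not pass the threshold. NR1D2 fell by 0.54 (SE 0.0566) and by 0.75 (SE 0.0863) on the log2 scale. By 24 h the means were 47.7 ± 0.485 and 47.8 ± 0.272 RPKM (SD, n = 3), and the log2 fold change of −0.07 at each dose did not pass the threshold.

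THRA, the thyroid hormone receptor α gene that overlaps NR1D1 on the other strand, also fell at 6 h, by 0.76 at 2 μM and by 1.11 at 10 μM on the log2 scale. These values lie within 1 SE of those of NR1D1. At 24 h the pair differed, since THRA was still lower than in untreated cells, with means of 10.0 and 8.94 RPKM against untreated libraries of 12.1, 11.7 and 12.1 RPKM, and NR1D1 was at 13.6 and 10.5 RPKM against 9.88 RPKM. The library kit keeps strand, but how strand was used in quantification is not given in the sources used here, so reads of this pair may not be separable. SPHK2, which overlaps DBP on the other strand, had log2 fold changes of 0.15 and 0.24 at 6 h, and NKIRAS1, which overlaps NR1D2, had 0.19 and 0.11, and neither gene passed the threshold at 6 h. AC129492.3 and MIR6883 overlap PER1 on its own strand, where strand cannot separate reads. The levels of these overlapping genes are not given here.

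PER1 encodes a period repressor that is also an early response gene. It measured 13.1, 12.1 and 13.1 RPKM in untreated HCT116, 18.4, 18.4 and 25.4 RPKM at 2 μM and 19.7, 18.5 and 15.8 RPKM at 10 μM after 6 h. The treated groups overlapped each other and lay above the untreated group. PER1 rose by 0.67 (SE 0.12) at 2 μM and by 0.48 (SE 0.113) at 10 μM on the log2 scale. The call at 10 μM was lost in 5 of 15 alternatives, among them leaving out any of the 3 untreated libraries or replicate 1 at 10 μM, with values between 0.41 and 0.57 without 1 library, and under the equal-sum scaling its log2 fold change was 0.0005. At 24 h the means were 18.1 ± 2.14 and 15.8 ± 2.67 RPKM (SD, n = 3), and PER1 was still raised at 2 μM, by 0.48 (SE 0.0835), a call lost when all 5 groups were fitted together, but at 10 μM its log2 fold change of 0.28 (SE 0.106) did not pass.

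PER2 and CRY1, which form the core repressor complex with the other period and cryptochrome proteins, rose at 6 h and overlapped the untreated libraries again at 24 h. PER2 measured 5.01, 4.43 and 4.18 RPKM in untreated libraries, 7.90, 7.32 and 8.47 RPKM at 2 μM and 8.91, 7.69 and 6.60 RPKM at 10 μM after 6 h. It rose by 0.74 (SE 0.101) and by 0.70 (SE 0.139) on the log2 scale, with no overlap between treated and untreated libraries. The call at 10 μM was lost without untreated replicate 3, where the log2 fold change was 0.65, and under the equal-sum scaling, where it was 0.25.

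CRY1 was the steadier of the pair. It measured 4.91, 5.63 and 5.09 RPKM untreated, 11.6, 9.69 and 10.98 RPKM at 2 μM and 11.4, 12.1 and 11.3 RPKM at 10 μM after 6 h. The lowest treated library lay well above the highest untreated one. CRY1 rose by 0.98 (SE 0.0971) and by 1.09 (SE 0.104), ratios of means of 2.07 and 2.23, and these calls held in all alternatives tried. At 24 h it measured 5.03 ± 0.532 and 4.69 ± 0.369 RPKM (SD, n = 3), overlapping the untreated libraries, with log2 fold changes of −0.05 and −0.14 that did not pass.

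PER3, a period gene with a weaker role in the core loop, had the lowest level of the 4 PER and CRY genes in HCT116. Its mean was 1.33 ± 0.216 RPKM (SD, n = 3) untreated, 1.82 and 1.99 RPKM at 6 h, which did not pass the threshold, and 2.14 and 2.37 RPKM at 24 h, which did. The log2 fold change at 24 h was 0.53 (SE 0.15) at 2 μM and 0.64 (SE 0.163) at 10 μM. The call at 2 μM was lost in 9 of 14 alternatives and that at 10 μM in 2 of 14, including without untreated replicate 3, where it was 0.56, and the range at 2 μM was 0.40 to 0.62 without 1 library. PER3 was the only gene of the 10 with its highest group mean at 24 h and 10 μM beside TEF.

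BHLHE40 encodes DEC1, a bHLH repressor that binds E-boxes and is induced by many stress and growth signals. It had the largest rise of the 10, from 9.74, 8.96 and 9.19 RPKM in untreated cells to 33.0, 29.6 and 40.2 RPKM at 2 μM and 29.5, 25.3 and 18.1 RPKM at 10 μM after 6 h. The 2 μM libraries were all above the 10 μM libraries, and the lowest of those was the replicate 3 that stood apart. The log2 fold change was 1.82 (SE 0.106) at 2 μM and 1.31 (SE 0.172) at 10 μM, and 1.5 at 10 μM without that library. At 24 h it measured 17.2, 14.2 and 16.1 RPKM at 2 μM and 14.5, 13.9 and 13.9 RPKM at 10 μM, below every 6 h library and above every untreated one. BHLHE40 was thus still raised at 24 h, by 0.73 (SE 0.0786) and by 0.58 (SE 0.0634), calls that held in all alternatives tried.

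BHLHE41, the DEC2 repressor, was near the limit of the filter in HCT116. It averaged 0.573 ± 0.0617 RPKM untreated, 0.440 and 0.252 RPKM at 6 h, and 1.10 and 0.529 RPKM at 24 h, at 2 μM and 10 μM each time (n = 3). It was not tested at 10 μM and 6 h, where its mean over the libraries compared was under 0.5 RPKM. The rise at 2 μM and 24 h, 0.57 (SE 0.163), was lost in 8 of 14 alternatives, including without any of the 3 untreated libraries or without replicate 3 at 2 μM, over a range of 0.44 to 0.65 without 1 library.

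**Figure D3:**
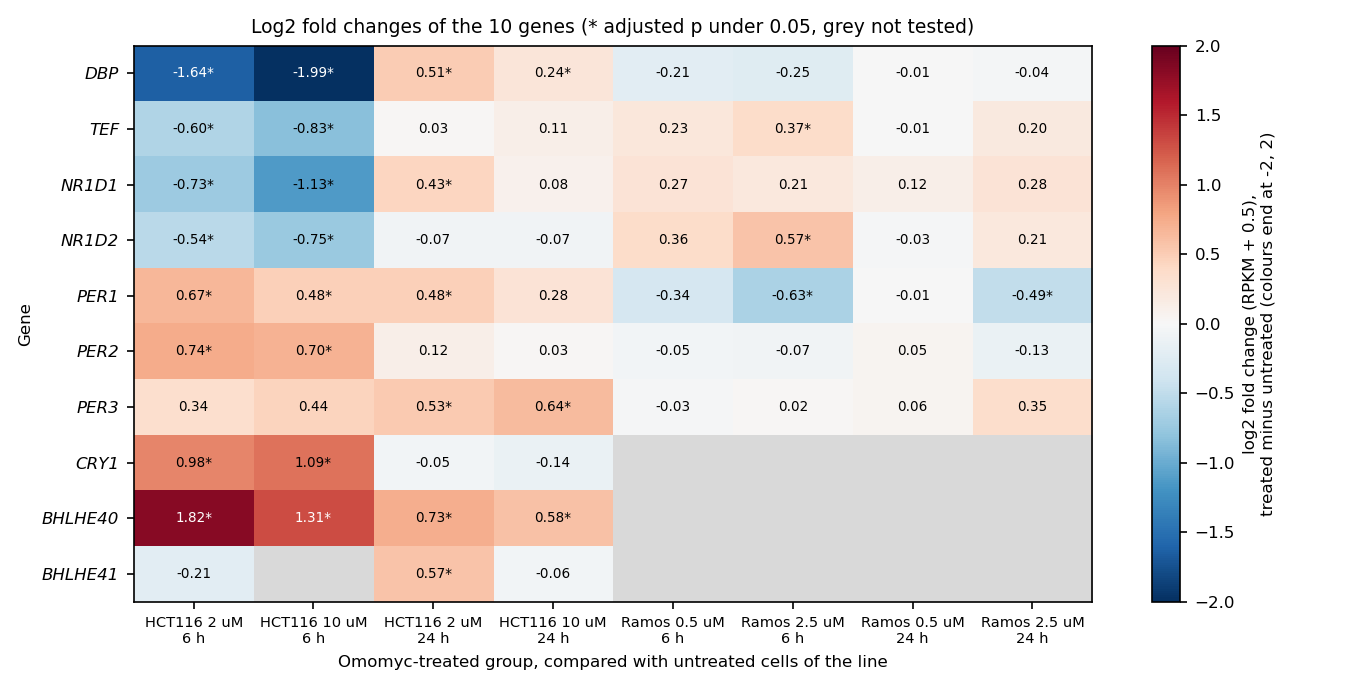
Log2 fold change against untreated cells of the same line for the 10 genes (rows) in the 8 treated groups (columns), on log2(RPKM + 0.5). Asterisks mark an adjusted p under 0.05 and grey cells were not tested. The 6 h HCT116 columns hold the lowest value, −1.99 for DBP, and the highest, 1.82 for BHLHE40.

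The calls at 24 h in HCT116 were all higher than in untreated cells, though several were not stable. At 2 μM 6 of 10 genes were higher and 0 lower, against 16.6% higher and 10.8% lower among all tested genes. At 10 μM 3 of 10 were higher and 0 lower, against 19.5% and 15.7%, which is not read as a direction of the list. The calls of PER3 and BHLHE41 at 2 μM were lost in 9 and 8 of 14 alternatives, and that of DBP at 10 μM in 10 of 15. Set directly against 6 h, 8 of 10 genes differed at 2 μM, 5 higher and 3 lower at 24 h, against 30.9% and 9.85% of all genes. BHLHE41 is among the 5 higher and passed the filter only through its 24 h mean of 1.10 RPKM, beside 0.44 RPKM at 6 h. Its call was lost in 3 of 14 alternatives, so it counts as not tested. At 10 μM 7 of 9 differed, 4 higher and 3 lower, against 5.80% and 2.06%. The genes that fell from 6 h to 24 h were PER2, CRY1 and BHLHE40 at both doses, by 0.61, 1.03 and 1.08 at 2 μM and by 0.67, 1.23 and 0.74 at 10 μM on the log2 scale. The count at 10 μM dropped to 2 when any of the 3 libraries at 24 h was left out, with DBP and CRY1 called throughout.

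No gene of the 10 was called between the doses in HCT116. In limma 0 of 9 genes differed between 10 μM and 2 μM at 6 h, where 0.0% of all genes did and 1242 genes had an unadjusted p under 0.05, and 0 of 10 differed at 24 h, where 0.18% did and 1739 had an unadjusted p under 0.05. The log2 differences ran from −0.50 (SE 0.193) for BHLHE40 to 0.11 (SE 0.121) for CRY1 at 6 h, and from −0.63 (SE 0.176) for BHLHE41 to 0.12 (SE 0.169) for PER3 at 24 h. The libraries of the doses did not overlap for DBP, NR1D2, BHLHE40 and BHLHE41 at 6 h, all lower at 10 μM. At 24 h they did not overlap for BHLHE41, lower at 10 μM (0.529 against 1.10 RPKM), and TEF, higher at 10 μM. The share of all genes without overlap between the doses is not given here. This list is therefore not read as a difference between the doses.

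Ramos cells expressed fewer of these genes. CRY1 was listed at 0 in 14 of 15 Ramos libraries, BHLHE40 in 11 of 15 with a highest value of 0.078 RPKM, and BHLHE41 in 15 of 15. The other 7 genes passed the filter. DBP was at 3.33, 3.33 and 1.81 RPKM in untreated Ramos, so its own group spread was wide, and all 12 treated libraries, between 2.12 and 3.16 RPKM, fell inside that range. NR1D1 group means ran from 0.643 to 0.874 RPKM, PER2 from 6.55 to 7.55 RPKM and PER3 from 0.766 to 1.14 RPKM, and none of these genes passed the threshold in any comparison between Ramos groups.

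**Figure D4:**
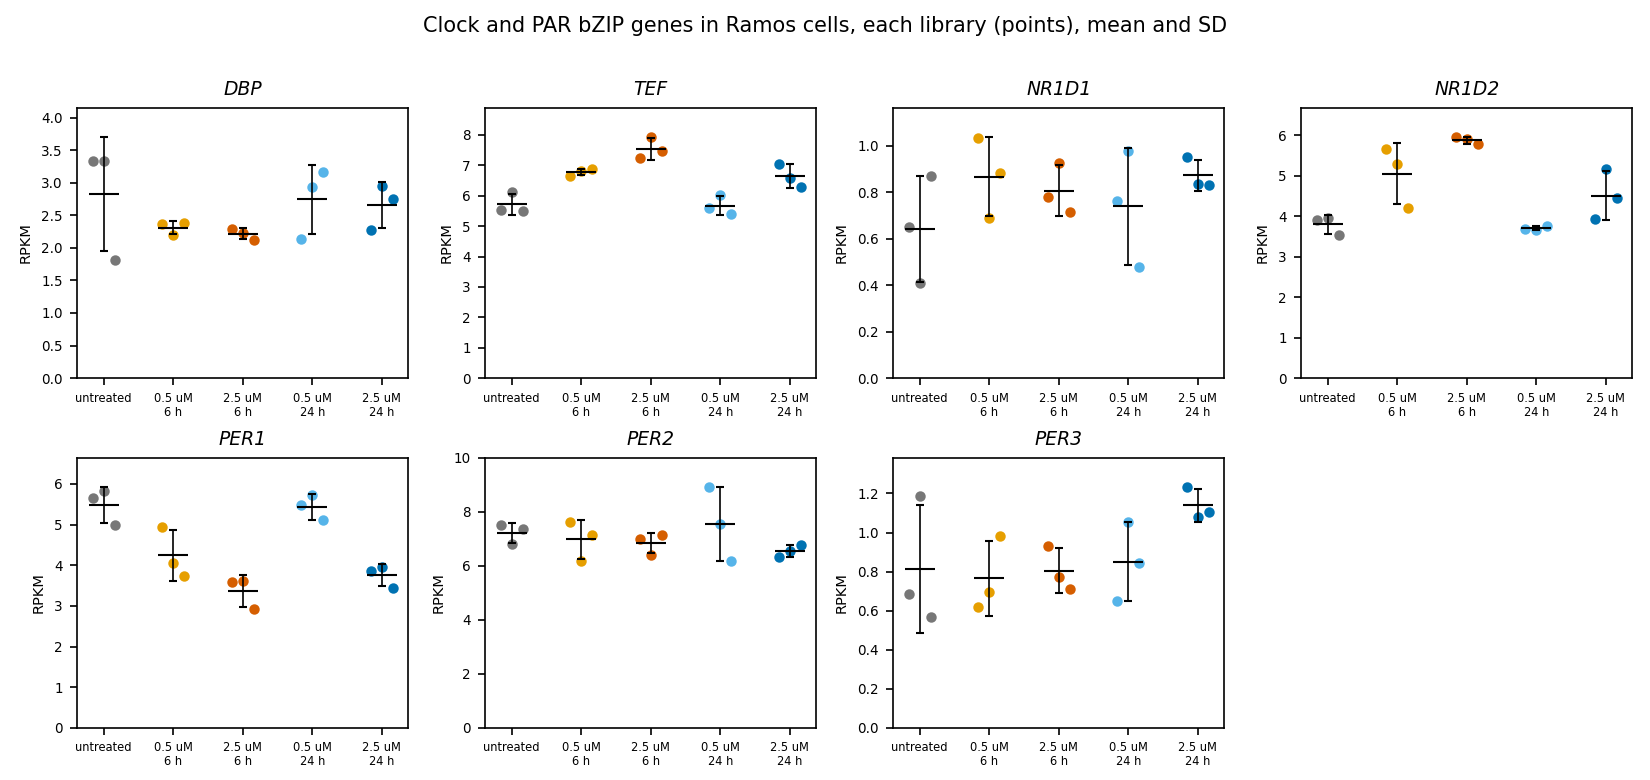
RPKM of the 7 genes expressed in Ramos in each library (points), with the group mean (bar) and SD (whiskers). TEF and NR1D2 were highest at 2.5 μM and 6 h, at 7.54 and 5.88 RPKM, where PER1 was lowest, at 3.37 RPKM.

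At 2.5 μM and 6 h in Ramos 3 of 7 genes passed, 2 higher and 1 lower, against 17.3% higher and 10.7% lower among all tested genes. TEF measured 5.53, 6.12 and 5.501 RPKM untreated and 7.23, 7.94 and 7.47 RPKM treated, and it rose by 0.37 (SE 0.0824), a call lost without replicate 2 of the treated group, over a range of 0.34 to 0.42 without 1 library. NR1D2 measured 3.91, 3.96 and 3.53 RPKM untreated and 5.95, 5.90 and 5.79 RPKM treated, and it rose by 0.57 (SE 0.0884). Both are among the 4 genes that fell in HCT116 at the same hour, and the other two, DBP and NR1D1, were not called in Ramos, with log2 fold changes of −0.25 and 0.21. PER1 measured 5.65, 5.83 and 4.98 RPKM untreated and 3.59, 3.61 and 2.92 RPKM treated, and it fell by 0.63 (SE 0.113) where it had risen in HCT116. For all 3 genes every treated library lay outside the untreated range.

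At 0.5 μM and 6 h 0 of 7 genes passed in limma, against 13.8% higher and 9.73% lower among all genes, of which 5018 had an unadjusted p under 0.05. The values lay on the same side as at 2.5 μM for TEF (0.23, SE 0.085), NR1D2 (0.36, SE 0.124) and PER1 (−0.34, SE 0.12). At 24 h and 0.5 μM 0 of 7 passed, in a comparison with 0.0146% of all genes called and 763 at an unadjusted p under 0.05, and the 7 log2 fold changes ran from −0.03 to 0.12. At 24 h and 2.5 μM 1 of 7 passed, 0 higher and 1 lower, against 3.30% and 1.31% of all genes. That gene was PER1, at 3.86, 3.97 and 3.45 RPKM, with a fall of 0.49 (SE 0.102) that was lost in 7 of 15 alternatives, over a range of −0.55 to −0.44 without 1 library.

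PER1 was also the only gene of the 7 called between the Ramos doses at 24 h, a call lost in 6 of 15 alternatives. Its level was 0.48 (SE 0.0944) lower on the log2 scale at 2.5 μM than at 0.5 μM, where it measured 5.47, 5.74 and 5.11 RPKM. This made 1 of 7 genes called, against 4.25% of all genes, and at 6 h 0 of 7 were called, against 0.429%, with 1373 genes at an unadjusted p under 0.05. From 6 h to 24 h NR1D2 fell by 0.39 (SE 0.116) at 0.5 μM and by 0.36 (SE 0.0987) at 2.5 μM, the single call among 7 genes at each dose. Among all genes 11.9% were higher and 13.5% lower at 24 h at 0.5 μM, and 12.7% and 10.4% at 2.5 μM. These PER1 and NR1D2 calls were each lost when several of the 6 libraries were left out in turn, with PER1 between doses at −0.52 to −0.43 and NR1D2 between times at −0.51 to −0.31 at 0.5 μM and −0.45 to −0.27 at 2.5 μM.

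The response of the lines was set side by side as the log2 fold change in HCT116 at 2 μM minus that in Ramos at 2.5 μM. At 6 h 6 of the 7 genes measured in both lines passed, 2 higher and 4 lower, against 12.2% higher and 28.4% lower among all genes. The differences were −1.38 (SE 0.233) for DBP, −0.98 (SE 0.109) for TEF, −0.94 (SE 0.272) for NR1D1 and −1.11 (SE 0.073) for NR1D2. They were 1.30 (SE 0.172) for PER1 and 0.81 (SE 0.115) for PER2, and 0.32 (SE 0.237) for PER3, which did not pass. The PER2 call was lost when libraries were rescaled to an equal sum. For CRY1 (0.98) and BHLHE40 (1.83) the difference is that of HCT116 alone, since both genes are listed at or near 0 in Ramos, and they are left out of these counts. At 24 h 1 of the 7 passed, against 6.81% higher and 9.51% lower, which was PER1 with 0.97 (SE 0.125). A delivery reagent is named only for HCT116. Any difference in reagent or medium cannot be told apart from the line in these values.

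In untreated cells all 7 genes measured in both lines differed between them, 6 higher and 1 lower in HCT116, in a comparison that called 84.6% of all genes. NR1D2 was at 50.1 RPKM in HCT116 and 3.80 RPKM in Ramos, a ratio of 13.2, and NR1D1 at 9.88 and 0.643 RPKM, a ratio of 15.4. DBP was 5.38 times higher in HCT116, PER1 2.32 times and TEF 1.53 times. PER2 was the exception, at 4.54 RPKM in HCT116 and 7.23 RPKM in Ramos, a call lost when libraries were rescaled to an equal sum. PER3, at 1.33 and 0.812 RPKM, lost its call in 7 of 12 alternatives, and its sign changed under quantile normalization.

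Within HCT116 the order of group means placed the 6 h groups lowest for DBP, TEF, NR1D1, NR1D2 and BHLHE41 and highest for PER2, CRY1 and BHLHE40. For DBP the order was 10 μM at 6 h, 2 μM at 6 h, untreated, 10 μM at 24 h and 2 μM at 24 h, and only the last 2 neighbours overlapped. For CRY1 the 24 h groups and the untreated group overlapped, as did the 6 h groups, and the untreated and 6 h libraries did not. In these bulk libraries a lower level in every cell and expression in fewer cells cannot be told apart.

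The remaining machinery of the clock was read from 6 lists of 49 genes in all, also chosen with these results known. Apart from ARNTL and CLOCK, the genes named from them were picked for their change in these same libraries. The limma adjusted p-values printed for genes of these lists are therefore a description and not independent tests. In HCT116 at 6 h 10 of the 43 tested were higher and 10 lower at 2 μM, beside 15.5% and 31.8% of all genes, and 8 and 11 of 43 at 10 μM, beside 8.84% and 21.2%. At 24 h 4 of 42 were higher and 10 lower at 2 μM, beside 16.6% and 10.8%, and 5 and 14 at 10 μM, beside 19.5% and 15.7%. In Ramos 6 of 37 were higher and 3 lower at 0.5 μM and 6 h, beside 13.8% and 9.73%, and 9 and 5 of 36 at 2.5 μM and 6 h, beside 17.3% and 10.7%. At 24 h in Ramos 0 of 37 were called at 0.5 μM, beside 0.0146%, and 0 were higher and 2 lower of 37 at 2.5 μM, beside 3.30% and 1.31%.

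Among the activators of the E-boxes, ARNTL and CLOCK had values near 0 at 6 h in HCT116 and ARNTL2 was lower at 10 μM. ARNTL, which encodes BMAL1, had log2 fold changes of −0.01 at 2 μM and −0.02 at 10 μM, and CLOCK had 0.01 and −0.09, none past the threshold. At 24 h CLOCK fell by 0.24 (SE 0.0696, limma adjusted p = 0.0326) at 2 μM and by 0.25 (SE 0.0818, limma adjusted p = 0.0376) at 10 μM. ARNTL fell by 0.29 (SE 0.0973, limma adjusted p = 0.0456) at 10 μM. In each of these the 3 treated libraries lay below the 3 untreated ones, and each call was lost in 5 or more of 15 alternatives. ARNTL2, the BMAL1 paralogue, averaged 22.0 RPKM untreated beside 7.30 RPKM for ARNTL. It fell by 0.41 at 10 μM and 6 h (limma adjusted p = 0.0215, lost in 7 of 15 alternatives) and at 24 h by 0.32 at 2 μM and by 0.39 at 10 μM, and these 24 h calls held in all 15 alternatives. NPAS2, the CLOCK paralogue, rose by 0.49 (SE 0.142, limma adjusted p = 0.0185) at 2 μM and 6 h, lost in 4 of 15.

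**Figure D5:**
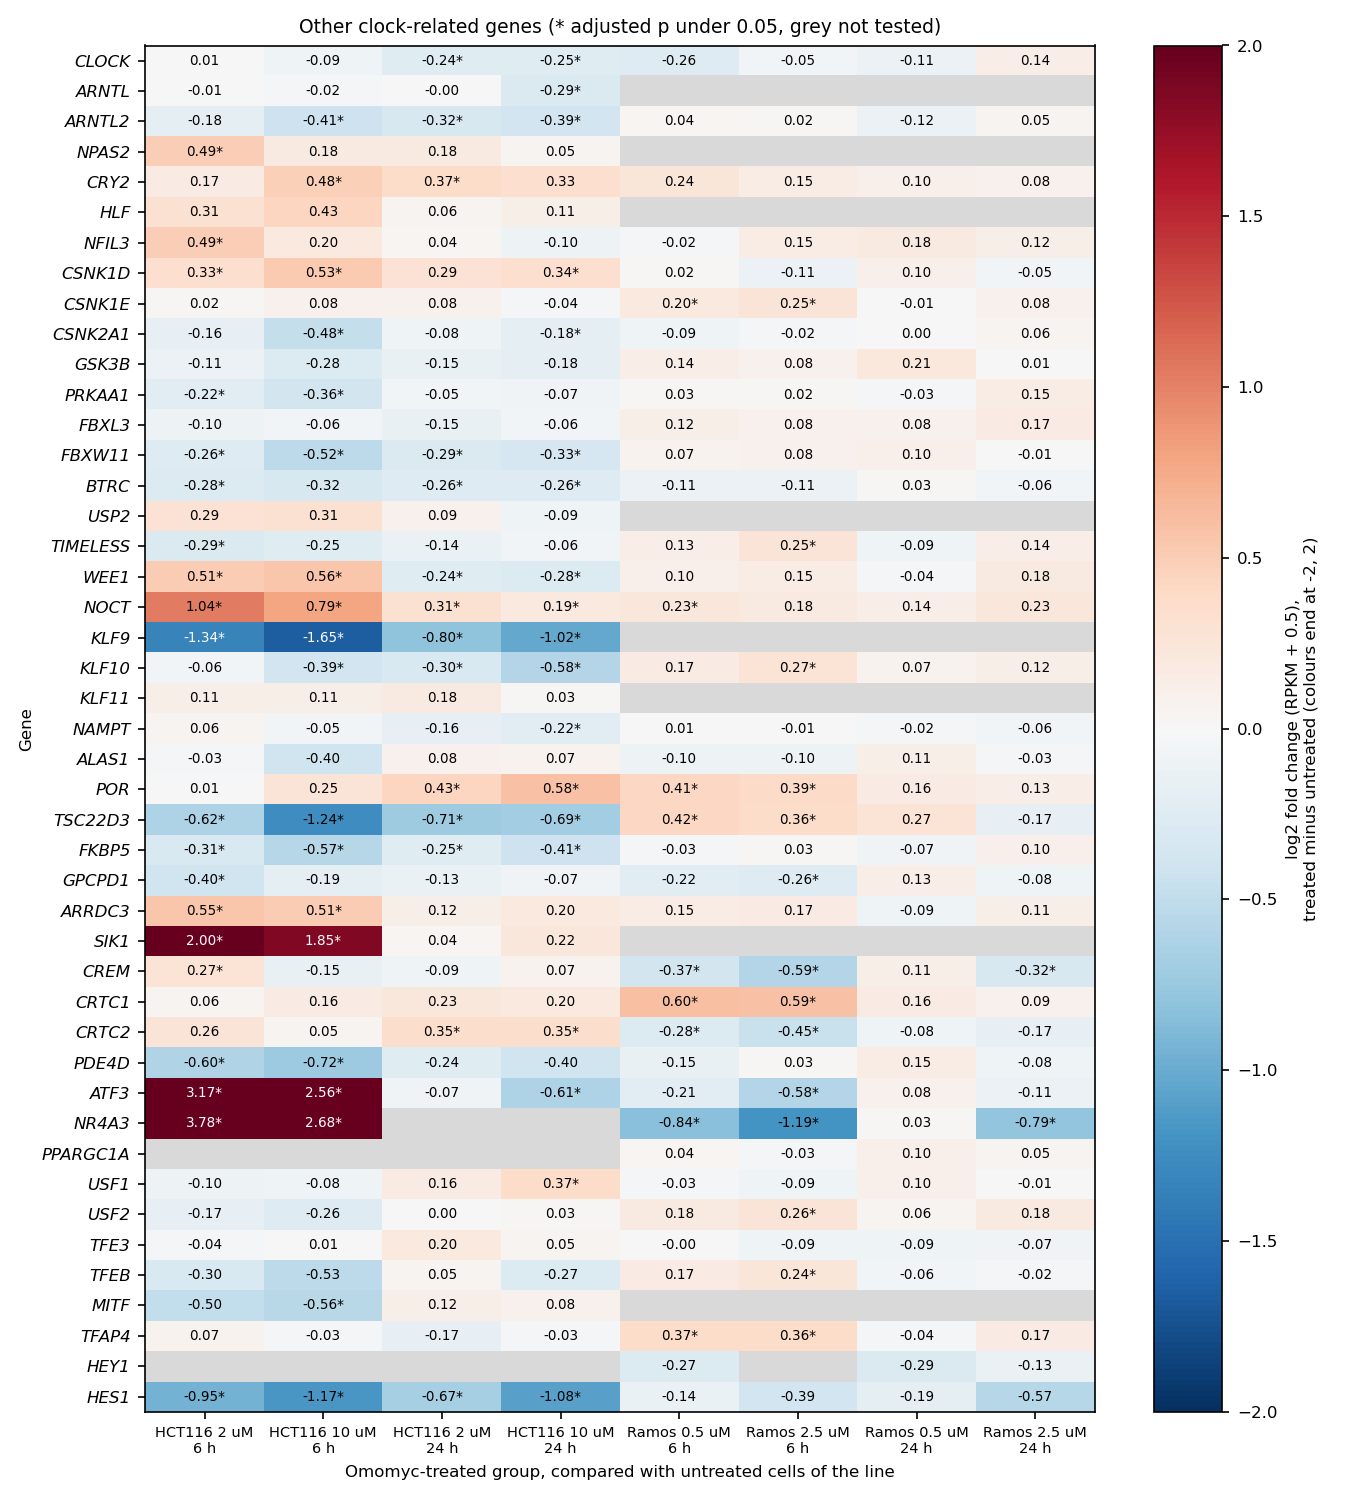
Log2 fold change against untreated cells of the same line for the other clock-related genes tested in at least 1 comparison (rows), in the 8 treated groups (columns). Asterisks mark an adjusted p under 0.05, grey cells were not tested and the colours end at −2 and 2. At 6 h in HCT116 NR4A3, ATF3 and SIK1 had the highest values and KLF9 the lowest, while CLOCK and ARNTL were near 0.

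Among 12 clock-controlled output genes 3 were higher and 4 lower at each dose at 6 h in HCT116. Of all tested genes 15.5% were higher and 31.8% lower at 2 μM, and 8.84% and 21.2% at 10 μM. The medians of the 12 genes were −0.01 at 2 μM and −0.12 at 10 μM, beside −0.12 and −0.11 for all genes. KLF9, a Krüppel-like factor known as a target of glucocorticoids and of the clock, fell by 1.34 (SE 0.143, limma adjusted p = 0.000137) at 2 μM and by 1.65 (SE 0.167, limma adjusted p = 0.00102) at 10 μM. Unlike DBP, KLF9 was still lower at 24 h, by 0.80 and by 1.02. The glucocorticoid-induced genes TSC22D3 and FKBP5 were lower at both doses and times, TSC22D3 by 0.62 and 1.24 at 6 h and by 0.71 and 0.69 at 24 h. FKBP5 fell by 0.31 and 0.57 at 6 h and by 0.25 and 0.41 at 24 h. NOCT, the rhythmic nocturnin gene, rose by 1.04 and 0.79 at 6 h, and WEE1, the mitotic kinase gene with E-boxes in its promoter, rose by 0.51 and 0.56 at 6 h and fell by 0.24 and 0.28 at 24 h.

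Genes of the CREB pathway, which reaches PER1 independently of E-boxes, held the largest rises of the 49 genes. NR4A3, an orphan nuclear receptor, averaged 0.176 RPKM untreated, 8.84 RPKM at 2 μM and 3.90 RPKM at 10 μM after 6 h, and 0.246 and 0.186 RPKM at 24 h, where it was not tested. It passed the filter at 6 h only through the treated libraries, so its log2 fold changes of 3.78 and 2.68 are given with no test. ATF3, a stress-induced bZIP factor, rose by 3.17 (SE 0.0682, limma adjusted p = 2.82e-08) at 2 μM and by 2.56 (SE 0.0925, limma adjusted p = 4.32e-05) at 10 μM after 6 h. SIK1, a kinase that restrains CREB coactivators, rose by 2.00 and 1.85. In these genes all treated libraries at 6 h lay above all untreated ones. At 24 h ATF3 had −0.07 at 2 μM and fell by 0.61 at 10 μM. Of the 8 genes in the list 7 were tested at 6 h, and 4 were higher and 1 lower at 2 μM, beside 15.5% and 31.8% of all genes, and 3 and 1 at 10 μM, beside 8.84% and 21.2%. The lower one at each dose was PDE4D, a cAMP phosphodiesterase, which passed the filter only through its untreated mean of 0.748 RPKM, and NR4A3 is among the higher ones. In Ramos at 2.5 μM and 6 h 1 of 7 was higher and 4 lower, beside 17.3% and 10.7% of all genes, with a fall of 1.19 for NR4A3 (limma adjusted p = 0.0013) and of 0.58 for ATF3, the latter lost in 9 of 14 alternatives, and a rise of 0.59 for CRTC1.

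Among the kinases and ubiquitin ligases that act on PER and CRY proteins 1 of 10 was higher and 4 lower at 2 μM and 6 h in HCT116. At 10 μM and 6 h 1 was higher and 3 lower. Of all tested genes 15.5% were higher and 31.8% lower at 2 μM, and 8.84% and 21.2% at 10 μM. The medians of the list were −0.13 and −0.27, beside −0.12 and −0.11 for all genes. CSNK1D, the casein kinase that phosphorylates PER, rose by 0.33 and 0.53, calls lost in 7 and 6 of 15 alternatives, and FBXW11, a β-TrCP ligase subunit for PER, fell by 0.26 and 0.52, calls lost in 3 and 2 of 15. TIMELESS, a replication fork gene with a disputed clock role, fell by 0.29 at 2 μM in HCT116 and rose by 0.25 in Ramos at 2.5 μM, both at 6 h, the former lost in 2 of 15. Among the other repressors and bZIP genes NFIL3, the D-box repressor, rose by 0.49 (limma adjusted p = 0.00338) at 2 μM and 6 h. CRY2 rose by 0.48 at 10 μM and 6 h, with a limma adjusted p of 0.0489 that was lost in 7 of 15 alternatives, and by 0.37 at 2 μM and 24 h. Among 8 other bHLH genes that bind E-box-like sites HES1, a Notch target repressor, fell at both doses and times, by 0.95 and 1.17 at 6 h and by 0.67 and 1.08 at 24 h. MITF fell by 0.56 at 10 μM and 6 h, a call lost in 10 of 14 alternatives. MITF passed the filter there only through its untreated mean of 0.951 RPKM, beside 0.484 RPKM treated, so its fall counts as not tested. USF1 rose by 0.37 at 10 μM and 24 h.

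The genes most like the members across the 15 HCT116 libraries, by Pearson correlation of log2(RPKM + 0.5) among 13141 genes, were GPSM2 (0.985), TBC1D5 (0.982) and ZSCAN30 (0.979) for DBP. They were NOCT (0.968), MYL9 (0.967) and WNT9A (0.962) for BHLHE40, and CDC25B (0.967), TULP3 (0.967) and CASTOR2 (0.96) for NR1D1. In the 15 Ramos libraries, among 12077 genes, KCNJ2 (0.939), NUCB2 (0.938) and IGHEP2 (0.937) were most like PER1. MSH6 (0.933), SMC3 (0.932) and RHOQ (0.93) were most like NR1D2, and WNT10A (0.934), FADS2 (0.927) and EBP (0.927) most like TEF. The libraries of a group share their treatment, so these values mostly rank genes by how their group means are ordered.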

How the data were processed

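Total RNA libraries (TruSeq Stranded Total RNA with Ribo-Zero, per the labels) were quantified by the authors, and the deposited table holds RPKM values for 57992 Ensembl genes in 30 libraries. The submitters' processing notes name RSEM without a version. The aligner, the annotation release and the genome build are not given in the sources used here. Symbols were taken from GENCODE 29 and matched 57388 genes, and gene counts were not analysed here, so no count test was run and depth is unknown. Groups were taken from the titles and treatment labels.

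RPKM values were transformed as log2(RPKM + 0.5), genes with a mean of at least 0.5 RPKM over the libraries compared were kept, and limma 3.58.1 in R 4.3.3 was fitted for each of 19 comparisons with an intensity trend in the variance and Benjamini-Hochberg adjustment over all tested genes. The fold change understates that of low genes. The fit was checked on simulated data. The 10 genes and the other lists were chosen with earlier results of these data known. No p-value is given for the 10, and those given for the other genes are a description. Named genes outside them are ARNTL and CLOCK, the 2 called genes of each list with the largest change per comparison, the genes overlapping a member, and the 3 most correlated genes of the 3 members with the widest range in each line. SIK1, WEE1, FKBP5 and PDE4D were named after their values were seen. Alternatives were pseudocounts of 0.1 and 1, no filter or one of 2 RPKM, median-ratio, equal-sum and quantile scaling, a replicate block, a fit of all 5 groups of a line, and leaving out each library. The result of 1 further output gene is not reported here. Promoter letters were read from RefSeq windows.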

Additional observations from a re-analysis of the deposited data

Results flagged for a closer look

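The values here were picked out because the effect differed between the cell lines or between the time points. For genes of the chosen 10, every treated library of HCT116 at the lower dose lay on one side of its untreated libraries and every Ramos library at 2.5 μM on the other. The difference of log2 fold changes (HCT116 minus Ramos) was −0.98 for TEF, −1.11 for NR1D2 and 1.30 for PER1 at 6 h, and 0.97 for PER1 at 24 h. Within HCT116 every library at 6 h lay below and every library at 24 h above the untreated libraries for DBP at both doses, with log2 differences between the times of 2.14 at 2 μM and 2.23 at 10 μM. The same held for NR1D1 at 2 μM (1.16) and TEF at 10 μM (0.94). The 24 h change of TEF from untreated cells at 10 μM did not pass the threshold, and that of DBP at 10 μM lost its call in 10 of 15 alternatives. The share of all genes that meet these rules of no overlap is not given here, so the list is not read as a result. These genes were chosen on these data, so the fitted values are a description and the differences count as not tested.

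For the other clock-related genes the difference between the lines was tested as an interaction in limma, in which 12.2% of all genes were higher and 28.4% lower in HCT116 at 6 h, and 6.81% and 9.51% at 24 h. The named genes were picked for a large change in one of the lines, so how many of them passed is not read as a result. Those that passed are listed with the size of the difference and no p-value. At 6 h the response was higher in HCT116 than in Ramos by 4.97 for NR4A3, 3.75 for ATF3, 0.87 for CREM, 0.86 for NOCT, 0.71 for CRTC2, 0.49 for NPAS2 and 0.43 for CSNK1D on the log2 scale. It was lower for KLF9 (−1.34), TSC22D3 (−0.98), HES1 (−0.56), TIMELESS (−0.54), CRTC1 (−0.53), USF2 (−0.42), POR (−0.38), FBXW11 (−0.33), TFAP4 (−0.29) and CSNK1E (−0.22). At 24 h it was higher for NR4A3 (0.92) and CRTC2 (0.51) and lower for KLF9 (−0.81), TSC22D3 (−0.55), TFAP4 (−0.34), FBXW11 (−0.29) and TIMELESS (−0.29). KLF9 and NPAS2 were too low in Ramos to be tested there alone, so their differences rest on HCT116. NR4A3 was near 0 in untreated HCT116, so its differences count as not tested. At 24 h NR4A3 was near 0 in treated HCT116 as well. Its difference at that time rests mostly on a fall of 0.79 in Ramos at 2.5 μM.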

How the results depend on the processing

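Of 2439 recomputed values of the 10 genes, 2271 moved by less than 1 SD between replicates, 167 moved by more and 1 called value changed sign, PER3 between the untreated lines under quantile normalization (−0.06). With libraries rescaled to an equal sum CREM and CSNK1D at 2 μM and 6 h in HCT116 became −0.05 and −0.0056, and CSNK1D between the lines at 6 h became −0.03. The equal-sum scaling moves the median of all genes by construction.

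The number of the 10 genes called at 6 h in HCT116 was 8 at each dose and stayed within 1.5 times of that in all alternatives, with 6 to 9 at 10 μM when 1 library was left out and 9 without replicate 3. Without a filter on low values the counts became 2 at 2 μM and 24 h, 1 at 10 μM and 24 h and 3 for 24 h against 6 h at 10 μM in HCT116, and 0 in Ramos for 2.5 μM at 24 h, for 24 h against 6 h at both doses and for the doses at 24 h. When the 5 groups of a line were fitted together they became 3 for HCT116 at 2 μM and 24 h, for Ramos at 0.5 μM and 6 h and for Ramos 24 h against 6 h at 0.5 μM, where a filter of 2 RPKM also gave 3. Equal sums gave 1 for Ramos at 0.5 μM and 6 h, 3 at 2.5 μM and 24 h, 0 for 24 h against 6 h at 2.5 μM, 2 between doses at 24 h and 4 between the lines at 24 h, where the count with BHLHE40 included was 2. Leaving out 1 library gave 2 to 7 for 24 h against 6 h at 10 μM in HCT116 and 0 to 1 for each of the Ramos comparisons of 0.5 μM at 6 h, 2.5 μM at 24 h, 24 h against 6 h at each dose, and the doses at 24 h. The cause of these changes was not tested.

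Replicate numbers did not pair the libraries, since same-numbered deviations correlated at −0.217 to 0.142 and in 0 comparisons were all over 0.1. With the replicate block the count was the same in 15 of 18 comparisons, 4 in place of 6 at 2 μM and 24 h in HCT116, 3 for 24 h against 6 h at 10 μM in HCT116 and 0 for Ramos at 2.5 μM and 24 h. Depth is unknown, so what a listed 0 allows cannot be given.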
